A study of Homo sapiens with 4 samples.

Results

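The 33 genes described here are known targets of p53 or partners in its pathway, and were picked by the gene symbol that the platform annotation gives to a row of the deposited value table. Of the 33 genes, 31 had a transcript cluster, the array's summary of one locus, out of 21448 transcript clusters tested. BTG2 and FDXR are not analysed here. The samples were SUIT2 cells, a human tumour cell line, given fb-PMT at 30 µM for 24 h (2 arrays) or phosphate-buffered saline for 24 h (2 arrays, called untreated). fb-PMT is a thyroid hormone analog, derived from tetraiodothyroacetic acid, that was designed to bind the hormone receptor site on integrin αvβ3. All 4 arrays came from the same line grown in RPMI medium with serum, and the labels do not say whether replicates were grown separately. The p-values therefore rest on a spread between arrays that could be technical alone.

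The SUIT-2 line was derived from a pancreatic ductal carcinoma and is known to carry a mutant p53 gene, whereas the labels describe the cells as glioblastoma. The glial markers GFAP, OLIG2, OLIG1, S100B and AQP4 were all below the negative controls, that is under the 95th percentile of the array's own negative control probe sets, on all 4 arrays. Of the 5 epithelial markers, KRT8, KRT18, KRT19 and EPCAM were above that level and CDH1 was below it. The summed log2 value of the 5 epithelial markers was 69.1 to 69.2 on fb-PMT arrays and 69.6 to 69.7 on untreated arrays, and that of the 5 glial markers was 17.8 on both fb-PMT arrays and 17.7 to 19.4 on untreated arrays. Among fibroblast markers 4 of 5, and among leukocyte markers 3 of 4 measured, lay under that level on each array, and COL1A2 and LYZ were above it. Array medians over all transcript clusters were nearly equal, at 6.27 on both fb-PMT arrays and 6.27 and 6.28 on the untreated arrays. The deposited values were already normalized, so these medians say little about the samples.

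p53 is a transcription factor that is held at a low level by the ubiquitin ligase MDM2 and is released by DNA damage and other stress. It then binds response elements in genes that halt the cell cycle, repair DNA, supply nucleotides or start apoptosis, and also in genes such as MDM2 that shut p53 off again. In cells whose p53 carries an inactivating mutation these genes can still be transcribed through other factors.

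The p53 target genes did not move together with fb-PMT. Of the 31 measured, 17 were higher and 14 lower, with a median log2 difference (fb-PMT minus untreated) of 0.022, against -0.017 for all transcript clusters. The span reached from -0.77 for AEN to 0.81 for CCNG2, and the middle of the distribution ran from -0.12 to 0.18 (quartiles), against -0.19 to 0.16 for all transcript clusters. None of the 31 passed limma's test at a Benjamini-Hochberg adjusted p of 0.05, where 0.0979% of all transcript clusters passed (21 higher and 0 lower). At an unadjusted p under 0.05, 5 of the 31 were counted (16.1%), 3 higher and 2 lower, where the share of all transcript clusters was 11.2% (5.7% higher and 5.49% lower). Both fb-PMT arrays lay beyond both untreated arrays for 13 genes (41.9%), 8 above and 5 below, and the share of all transcript clusters was 42.6% (20.2% above and 22.3% below). The share without overlap was near that of the whole array, so this count shows nothing particular to the p53 targets.

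**Figure D1:**
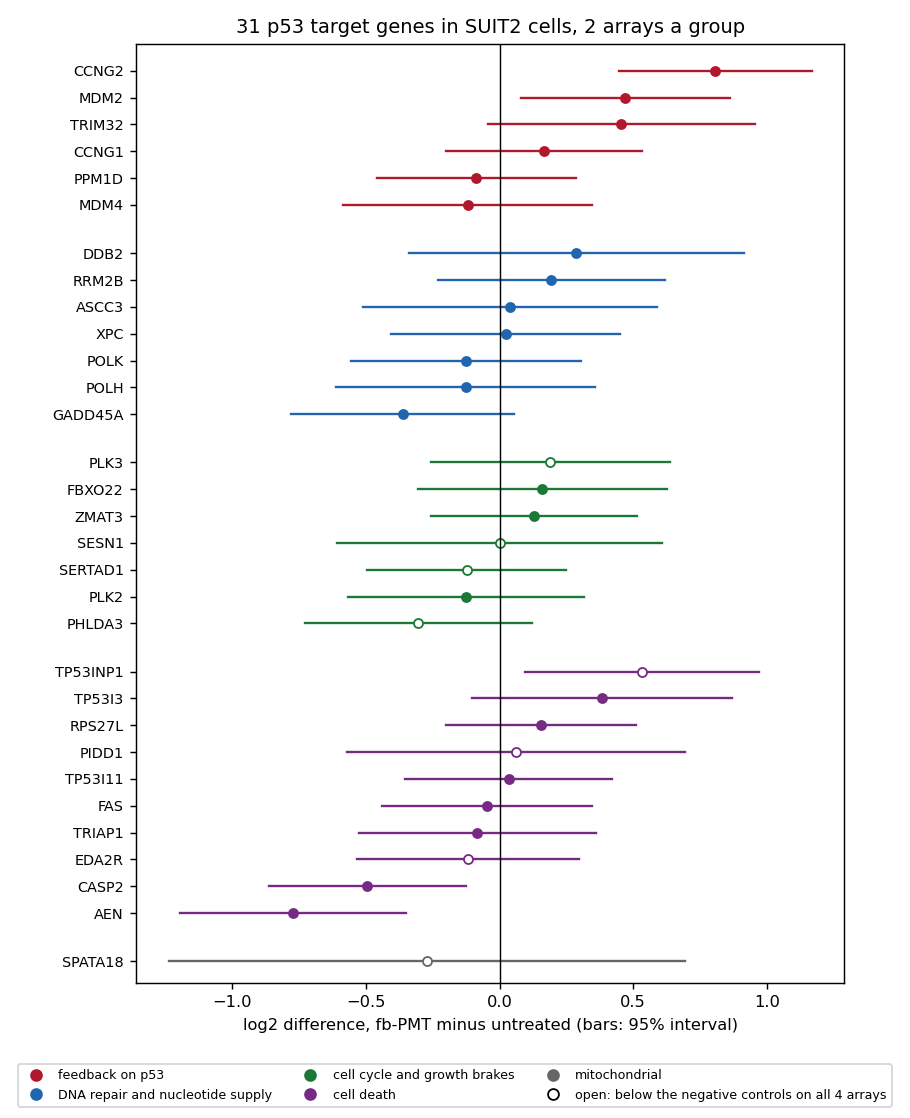
Log2 difference (fb-PMT minus untreated, x axis) of each of the 31 measured p53 target genes, grouped by role, with bars for limma's 95% interval and open points for genes below the negative controls on all 4 arrays. The intervals of CCNG2, MDM2 and TP53INP1 lie above 0, those of AEN and CASP2 lie below 0, and the other 26 include 0.

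Replicate spread set the size of shift that could be resolved. The median standard error over all transcript clusters was 0.175 on the log2 scale, and 9 of the 31 genes (29%) had a difference larger than the gap between replicates in both groups, against 30.1% of all transcript clusters. Those 9 were CCNG2, MDM2, TRIM32, CCNG1, TP53INP1, RPS27L, AEN, CASP2 and GADD45A. In bulk RNA of this kind, fewer cells with a transcript and less of it per cell cannot be told apart.

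Letter matches to the DNA consensus of p53 are shown for the genes whose start region holds one. Binding by p53 was not measured. Each RefSeq promoter window (GRCh38.p14) covers 250 bases before and 50 after a gene's start, and the 10-base p53 half-site consensus, which reads the same on both strands, was searched in it. Windows existed for 25 of the 31 genes, and 6 of these (24%) had a half-site, against 8.06% of the genes in the table. Some genes have several windows, and counted by window the shares were 15% of 40 and 6.63% of 35116. As targets of p53 were picked for the list, these shares are a description. ASCC3, FBXO22, GADD45A, PHLDA3, RRM2B and TP53INP1 had no entry. The capitals mark half-sites, shown with 10 bases on either side, or, for DDB2, as the pair alone.
AEN: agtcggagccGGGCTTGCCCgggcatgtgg
DDB2: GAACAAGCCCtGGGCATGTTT
FAS: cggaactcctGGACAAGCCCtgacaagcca
RPS27L: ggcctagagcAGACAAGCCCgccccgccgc
SESN1: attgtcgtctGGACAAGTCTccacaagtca
PLK2: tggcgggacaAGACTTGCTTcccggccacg

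The AEN stretch is chr15:88621296-88621325 on the plus strand, and its half-site begins 34 bases before the start. DDB2 (chr11:47214979-47214999, plus strand) was the 1 gene of the list with an exact full response element. That means 2 exact half-sites with at most 13 bases between them, which only 10 of 35116 windows in the table held. Half-sites with mismatches were not searched for, so elements that hold them are missed. The FAS stretch is chr10:88991299-88991328 on the plus strand, and the RPS27L, SESN1 and PLK2 stretches lie on the minus strand at chr15:63157517-63157546, chr6:109009018-109009047 and chr5:58460199-58460228. The 6 genes with a half-site did not share a direction. Their log2 differences were -0.77 for AEN, -0.12 for PLK2, -0.05 for FAS, 0.0003 for SESN1, 0.15 for RPS27L and 0.29 for DDB2. The windows of CCNG2, MDM2 and CASP2 held no match, which says only that these letters are not in those windows.

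Genes that act back on p53, grouped here with cyclin G2, had the highest median of the role groups. The size of that median depends in part on placing CCNG2, the highest of all 31 genes, in this group. The lists were drawn up with earlier results of these data known. Of the 6 measured, fb-PMT arrays had higher means for 4 and lower means for 2, with a median log2 difference of 0.31. The adjusted threshold was passed by 0, against 0.0979% of all transcript clusters. CCNG2 encodes cyclin G2, an atypical cyclin linked to cell cycle arrest, and had the smallest p of all 31 genes. Its log2 values were 8.99 and 9.04 on the fb-PMT arrays and 8.18 and 8.24 on the untreated arrays. The groups were well apart, and the gap between replicates was at most 0.06. CCNG2 was 1.75-fold higher (log2 difference 0.81, SE 0.15, limma adjusted p = 0.203), and by its p it ranked 180 among 21448 transcript clusters. Its difference stayed between 0.78 and 0.84 when any 1 array was left out. Its relative CCNG1, or cyclin G1, which brings the phosphatase PP2A to MDM2, stood at 13.31 and 13.36 on the fb-PMT arrays and 13.11 and 13.22 on the untreated arrays. The groups of CCNG1 also did not overlap, but the log2 difference was 0.17 (95% interval -0.20 to 0.53, adjusted p = 0.717). The difference between the responses of both cyclins was not tested.

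MDM2, the ligase that marks p53 for degradation and is itself switched on by p53, was measured at 10.71 and 10.74 on fb-PMT arrays and at 10.15 and 10.36 on untreated arrays. Both fb-PMT values were above both untreated ones. It was 1.39-fold higher (log2 difference 0.47, SE 0.16, 95% interval 0.08 to 0.86), with an unadjusted p of 0.0256 and an adjusted p of 0.392 in limma's fit. The log2 difference of MDM2 ran from 0.36 to 0.58 when any 1 array was left out. MDM4, the relative of MDM2 that binds p53 and silences its activation domain, had 8.94 and 8.74 with fb-PMT, against 8.78 and 9.14 without. Its groups overlapped, with a log2 difference of -0.12 (95% interval -0.58 to 0.35).

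TRIM32, another ubiquitin ligase that targets p53, had log2 values of 9.38 and 8.93 on fb-PMT arrays and 8.62 and 8.78 on untreated arrays. The fb-PMT values were the higher ones, but replicate 1 stood well above replicate 2. The log2 difference of TRIM32 was 0.45 (SE 0.20, limma adjusted p = 0.484), and leaving out fb-PMT replicate 1 gave 0.23, while leaving out fb-PMT replicate 2 gave 0.68. PPM1D, the phosphatase that reverses checkpoint phosphorylation of p53 and its kinases, had 9.60 and 9.64 with fb-PMT and 9.78 and 9.64 without, which overlap (log2 difference -0.09).

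**Figure D2:**
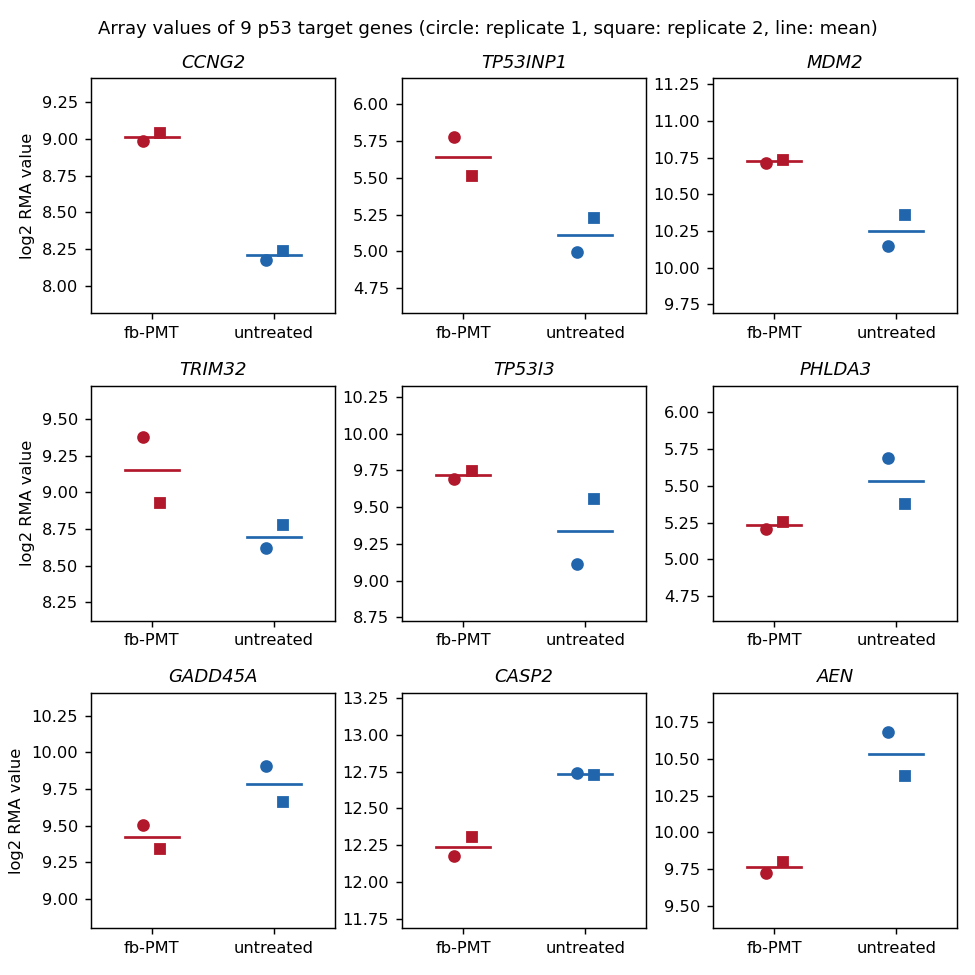
Log2 RMA values of the 9 p53 target genes described array by array, with the 2 fb-PMT arrays left and the 2 untreated arrays right in each panel, a line at each mean, and the same y axis span in all panels. CCNG2 and CASP2 show tight replicates with separated groups, whereas in TRIM32 and TP53I3 the replicates of 1 group lie about as far apart as the group means.

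Among the cell death genes the direction was split. Of 10 measured, 5 were higher and 5 lower, with a median of -0.006, and 3 had an unadjusted p under 0.05 (30%, against 11.2% of all transcript clusters). These were AEN and CASP2, which were lower, and TP53INP1, which was higher and lay under the negative controls on each array. AEN encodes apoptosis-enhancing nuclease, an exonuclease that p53 induces. It had 9.73 and 9.80 on fb-PMT arrays, against 10.68 and 10.39 on untreated arrays. Both fb-PMT values were well under both untreated values, and the untreated replicates differed by 0.30. AEN was 1.71-fold lower (log2 difference -0.77, SE 0.17, limma adjusted p = 0.255), ranked 370 by its p, and kept a difference of -0.92 to -0.62 when any 1 array was left out.

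CASP2 encodes an initiator caspase that is activated on a platform built by PIDD1, the PIDDosome. Its values were 12.18 and 12.30 with fb-PMT and 12.74 and 12.73 without. The untreated arrays were nearly equal and both fb-PMT arrays were below them. CASP2 was 1.41-fold lower (log2 difference -0.50, SE 0.15, limma adjusted p = 0.368). PIDD1 itself was below the negative controls on all 4 arrays, so its log2 values of 4.75 and 4.52 with fb-PMT and 4.91 and 4.24 without carry no fold.

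TP53INP1, a stress-induced nuclear protein that promotes autophagy and cell death, read 5.78 and 5.51 on fb-PMT arrays and 5.00 and 5.22 on untreated arrays. All 4 values were below the negative controls, so no fold is given although the groups did not overlap (log2 difference 0.53, limma adjusted p = 0.39). TP53I3, a quinone oxidoreductase tied to oxidative stress in p53-driven death, had 9.69 and 9.75 with fb-PMT and 9.11 and 9.56 without. The fb-PMT arrays were both higher, but untreated replicate 1 was far under replicate 2. The log2 difference of TP53I3 was 0.38 (SE 0.20, limma adjusted p = 0.536) and came to 0.16 without untreated replicate 1 and 0.61 without untreated replicate 2.

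The death receptor gene FAS, a classic p53 target, had 9.25 and 9.13 on fb-PMT arrays and 9.15 and 9.33 on untreated arrays. These overlapped, with a log2 difference of -0.05 (95% interval -0.44 to 0.35). RPS27L, a p53-induced paralogue of a ribosomal protein, was at 11.36 and 11.38 with fb-PMT and 11.21 and 11.22 without. Its replicates were among the closest of the list and its groups did not overlap, yet the difference was small at 0.15 (limma adjusted p = 0.736). TRIAP1, an inhibitor of apoptosis at mitochondria, and TP53I11 overlapped, with log2 differences of -0.08 and 0.03. EDA2R, a receptor of the tumour necrosis factor receptor family, was below the negative controls on all 4 arrays (3.40 to 3.59 with fb-PMT and 3.50 to 3.72 without).

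Genes of DNA repair and nucleotide supply showed little difference. Of 7 measured, 4 were higher and 3 lower, with a median of 0.022. None had an unadjusted p under 0.05, against 11.2% of all transcript clusters, a share at which 0 of 7 says little. GADD45A, a stress sensor in growth arrest and repair, was the 1 whose groups did not overlap (14.3%, against 42.6% of all transcript clusters). It had 9.50 and 9.34 on fb-PMT arrays and 9.91 and 9.66 on untreated arrays. The log2 difference was -0.36 (SE 0.17, limma adjusted p = 0.503), and it was -0.24 without untreated replicate 1.

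DDB2, which recognises ultraviolet lesions together with DDB1 and carries the full response element shown above, had 7.36 and 7.35 on fb-PMT arrays and 6.72 and 7.42 on untreated arrays. Untreated replicate 1 was alone below the negative controls, and the groups overlapped (log2 difference 0.29, 95% interval -0.34 to 0.91). XPC, the damage sensor of global nucleotide excision repair, was 0.02 apart. RRM2B, the p53-inducible subunit of ribonucleotide reductase, was at 0.19, and ASCC3, a helicase of alkylation repair, at 0.04. The translesion polymerase genes POLK and POLH gave the same small log2 difference of -0.13, and the groups of all of these genes overlapped.

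The genes labelled as brakes on the cell cycle and on growth signals had 7 measured, of which 4 were higher and 3 lower (median 0.0003). The label is loose and does not hold for every gene. At an unadjusted p under 0.05 there were 0, against 11.2% of all transcript clusters, a share at which 0 of 7 says little. SERTAD1, a regulator of E2F-driven transcription, the sestrin gene SESN1, the stress-activated kinase gene PLK3 and PHLDA3 lay under the negative controls throughout. PHLDA3, which blocks AKT at the membrane, had log2 values of 5.21 and 5.25 with fb-PMT and 5.69 and 5.38 without, so its non-overlapping groups (difference -0.30, limma adjusted p = 0.568) carry no fold. Without untreated replicate 1 the difference of PHLDA3 was -0.15, and without untreated replicate 2 it was -0.46. SESN1, which restrains the growth kinase mTORC1, showed how far replicates could differ, with 6.10 and 5.95 on fb-PMT arrays and 5.70 and 6.35 on untreated arrays. The kinase gene PLK2 was measured at 12.27 and 12.09 with fb-PMT and 12.15 and 12.46 without, a log2 difference of -0.12 with overlapping groups. ZMAT3, an RNA-binding protein, differed by 0.13 without overlap, and FBXO22, a ubiquitin ligase subunit, by 0.16 with overlap. SPATA18, which takes part in mitochondrial quality control and is the 1 mitochondrial gene measured, was below the negative controls (3.15 and 4.05 with fb-PMT, 4.29 and 3.45 without).

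**Figure D3:**
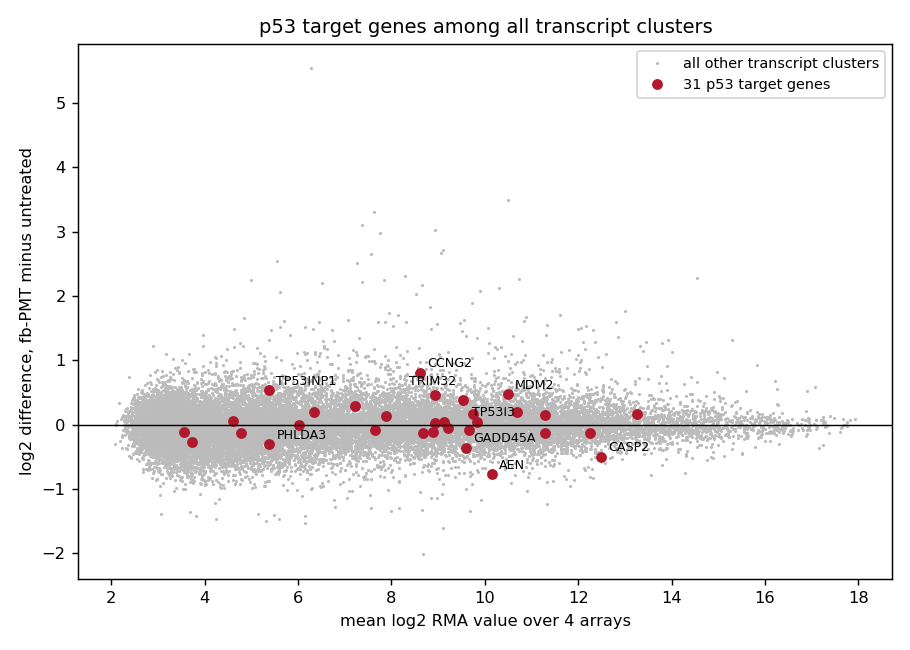
Log2 difference (fb-PMT minus untreated, y axis) against the mean log2 RMA value over the 4 arrays (x axis) for all transcript clusters in grey and the 31 p53 target genes in red, with 9 of them named. The red points lie between -0.77 and 0.81, within the grey cloud.

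Whether any of these genes was called depended on the variance model and on which transcript clusters were tested. limma's standard fit gives genes of all intensities one prior variance. With a prior that follows intensity, CCNG2 was higher (adjusted p = 0.0332) and AEN (adjusted p = 0.0254) and CASP2 (adjusted p = 0.0348) were lower past the threshold. These 3 of 31 make 9.68%, against 1.88% of all transcript clusters in that fit (1.37% higher and 0.513% lower). A larger share of all transcript clusters (55.1%) than of the p53 targets (25.8%) was below the negative controls on all 4 arrays. Among those that were not, 3 of 23 p53 targets (13%) passed in that fit, against 3.81% of 9628 transcript clusters. When only transcript clusters above the negative controls on at least 2 arrays were tested, CCNG2 (adjusted p = 0.0187) and AEN (adjusted p = 0.0409) passed and CASP2 did not (adjusted p = 0.0877). That is 2 of the 23 p53 targets tested there, against 3.09% of all transcript clusters tested there.

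Further p53 targets, listed from general knowledge of the pathway with earlier results of these data known, were also mixed in direction. Of 35 listed, 31 were measured, 16 higher and 15 lower with a median log2 difference of 0.058. The adjusted threshold was passed by 0, against 0.0979% of all transcript clusters. At an unadjusted p under 0.05 there were 8 (25.8%), 5 higher and 3 lower, against 11.2% of all transcript clusters. As the list was drawn up with results known, this share is a description. CDKN1A, which encodes the cyclin-dependent kinase inhibitor p21 and is the best known p53 target, read 7.87 and 8.07 on fb-PMT arrays and 7.93 and 8.36 on untreated arrays. These overlapped (log2 difference -0.17, 95% interval -0.67 to 0.32), and the sign turned to 0.04 without untreated replicate 2. BAX, a pore-forming death effector, was at 10.66 and 10.84 with fb-PMT and 10.87 and 10.92 without (log2 difference -0.15, limma adjusted p = 0.768), and its difference was -0.06 without fb-PMT replicate 1, while leaving out fb-PMT replicate 2 gave -0.24.

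GDF15, a secreted stress cytokine that p53 and the integrated stress response can both induce, had 11.55 and 12.04 on fb-PMT arrays, against 10.99 and 11.14 on untreated arrays. Both fb-PMT values were higher, and GDF15 was 1.66-fold higher (SE 0.21 on the log2 scale, limma adjusted p = 0.352, and adjusted p = 0.0452 with the intensity trend). Its log2 difference of 0.73 was 0.49 without fb-PMT replicate 2, while leaving out fb-PMT replicate 1 gave 0.98. PRDM1, a transcriptional repressor, had the largest difference of this list, 1.11 on the log2 scale, but was below the negative controls on all arrays, with 6.66 and 6.39 with fb-PMT and 5.44 and 5.39 without. TRIM22, an interferon-inducible antiviral protein, was likewise below them (log2 difference 0.72, and 0.44 without fb-PMT replicate 2). NADSYN1, an enzyme of NAD synthesis, was 1.42-fold higher (log2 difference 0.51, limma adjusted p = 0.39). DRAM1, a lysosomal membrane protein that links p53 to autophagy and is named here with its values in view, had 9.45 and 9.36 on fb-PMT arrays and 8.996 and 8.81 on untreated arrays. Its groups did not overlap, and it was 1.42-fold higher (log2 difference 0.51, SE 0.16, limma adjusted p = 0.375).

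On the lower side, SFN, or 14-3-3σ, which holds the cell cycle before mitosis, had 11.10 and 11.24 on fb-PMT arrays and 11.71 and 11.73 on untreated arrays. It was 1.47-fold lower (limma adjusted p = 0.332, and adjusted p = 0.0382 with the intensity trend). IGFBP3, which sequesters insulin-like growth factors, was 1.37-fold lower (limma adjusted p = 0.378, and adjusted p = 0.0145 with the trend), with 14.09 and 14.06 with fb-PMT and 14.55 and 14.52 without. THBS1, an inhibitor of blood vessel growth, was 1.31-fold lower (log2 difference -0.39, limma adjusted p = 0.446).

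Upstream, the p53 family and its regulators were close to even. Of 23 measured, 11 were higher and 12 lower (median -0.011). At an unadjusted p under 0.05 there were 0, against 11.2% of all transcript clusters. In limma's fit 0 passed the adjusted threshold, against 0.0979% of all transcript clusters, and 0 passed with the trend, against 1.88%. At such low shares, 0 past the adjusted threshold says little about these 23 genes. Their log2 differences ran from -0.27 for ATR, a damage kinase that was below the negative controls, to 0.35 for PIAS1, a SUMO ligase. The damage kinase gene ATM was at 0.03, and the checkpoint kinase gene CHEK1 at -0.06.

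**Figure D4:**
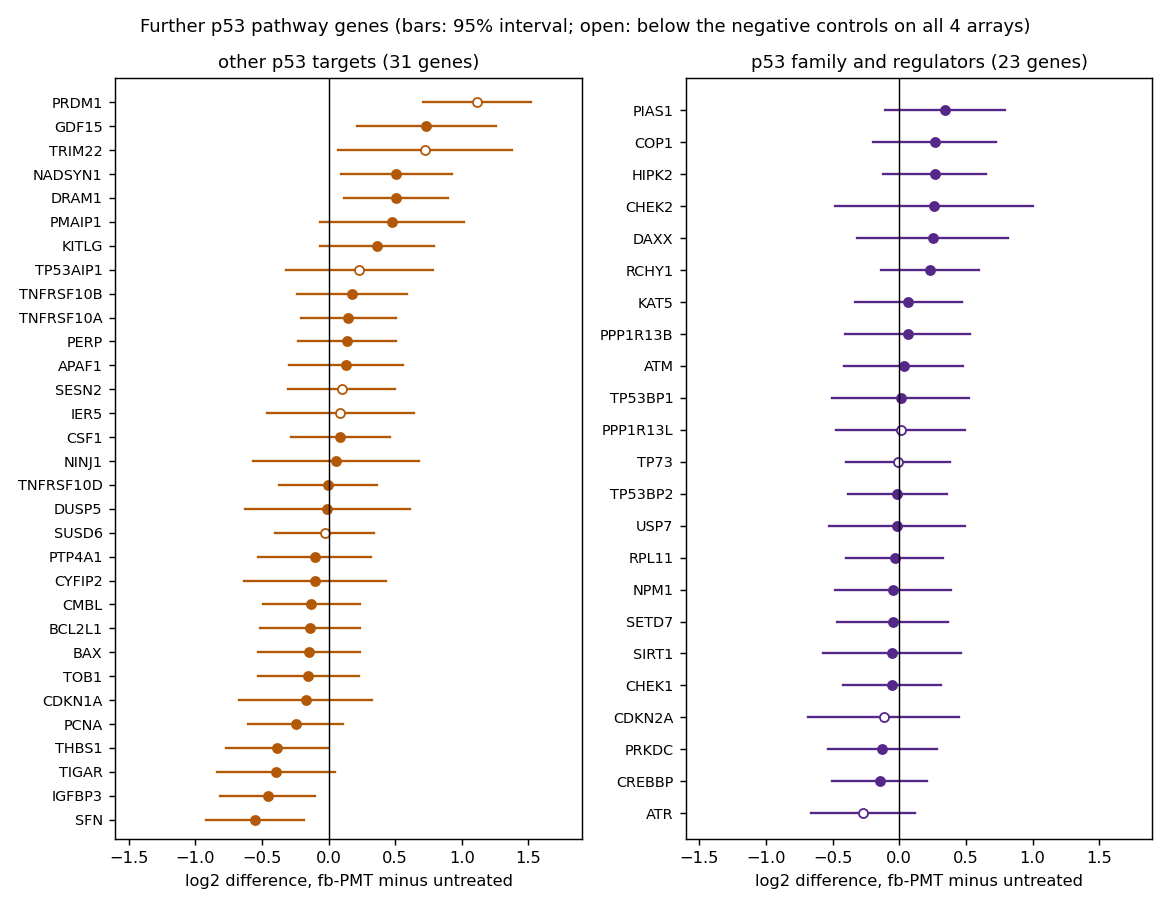
Log2 difference (fb-PMT minus untreated, x axis) with limma's 95% interval for 31 further p53 targets (left) and 23 members of the p53 family and its regulators (right), with open points for genes below the negative controls on all 4 arrays. Intervals of 8 targets exclude 0, 5 above and 3 below, and all 23 regulators include 0.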

How the data were processed

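Biotin-labelled RNA of SUIT2 cells was measured on 4 one-colour arrays, 2 per group. The deposited log2 values come, per the submitters' processing notes, from RMA run with Transcriptome Analysis Console (version 4.0.1.36). Which RMA variant and which build were used is not given in the sources used here. RMA narrows differences of dim probe sets, and normalization removes shifts shared by most genes. After 2903 control probe sets were left out, 21448 transcript clusters entered one fit in limma (version 3.58.1, under R 4.3.3; lmFit, eBayes without trend), fb-PMT minus untreated, with two-sided p-values and Benjamini-Hochberg adjustment over all of them. The prior had 3.72 degrees of freedom and the residual 2. The number of arrays limits the precision. Annotation gave 1 symbol for 17709 transcript clusters, several for 0 and none for 3739. The 612 negative control probe sets had a 95th percentile of 7.15 and 7.29 on fb-PMT arrays and 7.38 and 7.22 on untreated arrays; 11820 transcript clusters stayed under it on each array.

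The members and lists were chosen with earlier results of these data known. Array values are given for members with an unadjusted p under 0.05, for those without overlap and a log2 difference of 0.3 or more in size, for MDM2, and for others as illustration. From the 2 further lists, CDKN1A, BAX and GDF15 and up to 4 higher and 4 lower genes at that p are named; ATR, PIAS1, ATM and CHEK1 were added with their values in view. The gene of p53 itself is not analysed here. The fit was also run on simulated data whose spread was drawn from its own prior. Such a run cannot show whether that prior holds for these arrays. Promoter sequences are RefSeq's (GRCh38.p14). Alternatives were an intensity trend in the prior, plain or robust, the replicate block, 2 filters on low values, only named transcript clusters, quantile normalization, median centring, array weights, each array left out, and an adjusted p of 0.1.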

Additional observations from a re-analysis of the deposited data

How the results depend on the processing

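With 2 arrays a group, the count of p53 targets past the threshold was 0 in the standard fit and in every alternative but 3. It was 3 with an intensity trend, 3 with a robust trend (1 higher and 2 lower in each) and 2 when transcript clusters had to be above the negative controls on 2 or more arrays (1 higher and 1 lower). Of the 31 further p53 targets 0 passed, against 4 with the trend and 4 with the robust trend. With the trend that was 12.9%, against 1.88% of all transcript clusters. That list was drawn up with results known, so this share is a description. The count of all transcript clusters past the threshold was 21, against 403 with the trend, 394 with the robust trend, 289 above the negative controls, 67 without the lowest 30%, 44 with only named ones, 73 at an adjusted p of 0.1, 1 with the replicate block and 1 to 9 with 1 array left out. Leaving out 1 array gave 2 to 7 members at an unadjusted p under 0.05 (2 without untreated replicate 1 and 2 without fb-PMT replicate 1, against 5), or 6.45% to 22.6%, where 6.88% to 13.2% of all transcript clusters had such a p. With a group of 1 array, non-overlap is more frequent for all genes: it held for 19 to 24 members (61.3% to 77.4%) and for 69.6% to 73.8% of all transcript clusters. In those fits the lone array is assumed to vary like the other group. The log2 difference of CDKN1A was -0.387 to 0.0435 when 1 array was left out, and its sign turned without untreated replicate 2; the cause was not tested. The median of the members ran from -0.0506 to 0.0605 over these fits. For same-numbered arrays the labels give a shared number and do not say whether they shared a culture or batch. The correlation of their deviations was 0.042, which cannot settle that. With the replicate block 0 members passed the adjusted threshold, where 1 of all transcript clusters did.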
